A study of Mus musculus with 2 samples.

Results

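Cycling tumor epithelial cells were taken as the cells annotated as epithelial in the deposited data that held at least 1 unique molecular identifier (UMI, 1 captured mRNA molecule) of both *Mki67* and *Top2a* and less than 25% mitochondrially encoded UMIs. These were 2013 of 15326 epithelial cells under 25% mitochondrial content, and of 38883 cells in all. They were compared with 9098 resting epithelial cells, in which neither mRNA was detected and the same mitochondrial limit held. The remaining 4215 epithelial cells under this limit held 1 of the 2 mRNAs. Since the members were chosen by the values of *Mki67* and *Top2a*, their levels are no finding, and the contrast of cycling and resting cells is given as a description with no test.

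The cells came from colitis-associated colon tumors (CACs) of female mice on a C57Bl/6 background, which at 6 to 10 weeks of age received 3 cycles of 5 days of dextran sulfate sodium (DSS, which injures the colon epithelium, 2.5% in the first 2 cycles and 2% in the last) and an injection of azoxymethane (AOM, a colon carcinogen, 10 mg/kg) before each of the first 2 cycles, and were sacrificed on day 110. All mice carried floxed *Mir34a* alleles, and the group labelled Mir34a_Mye_KO carried LysM-Cre in addition, a recombinase made in myeloid cells. By design the epithelial cells of both groups therefore keep the floxed alleles, and the comparison of the groups asks what differs in tumor cells when *Mir34a* is deleted in their myeloid neighbours. For each genotype 6 to 8 tumors of 3 mice were pooled into 1 library. Cells carried CellPlex sample tags, but the annotation used here does not assign cells to mice, so that no test between genotypes was possible. Intervals given here cover counting error only.

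The library labelled Mir34a_F/F held 1342 cycling, 5473 resting and 9286 epithelial cells under the limit, and the library labelled Mir34a_Mye_KO held 671, 3625 and 6040. In all pairs of values below, the first is from the library labelled Mir34a_F/F and the second from the library labelled Mir34a_Mye_KO. Cycling cells were deeper than resting cells, with a median of 11626 and 11460 UMIs against 5157 and 4784. Of all epithelial cells 20.04% and 38.8% reached 25% mitochondrial content, and 145 and 321 of these held both mRNAs. The member with the most mitochondrial mRNA lay at 24.995% and 24.887%, and the nearest cell outside the limit at 25.073% and 25.119%. The libraries shared 96 cell barcodes, and 3 members had a barcode that also occurred in the other library.

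The added features for the targeted gene did not check the genotype labels. The Cre feature had 0 UMIs in cycling and resting epithelial cells, T cells and macrophages of both libraries. The feature for the junction of Cre and Lyz2 had 62 and 20 UMIs in cycling macrophages and 198 and 73 in resting macrophages, where LysM-Cre acts, beside 557 and 203 and 1818 and 600 UMIs of *Lyz2* itself. It thus followed *Lyz2* in both libraries, and both were lower in the library labelled Mir34a_Mye_KO. These macrophages held 2729110 and 5153994 UMIs in all when cycling and 9989326 and 14361921 when resting. By its strain name, the LysM-Cre line of the study carries Cre in the lysozyme gene. Whether this lowers *Lyz2* was not tested. Per 10000 UMIs the junction feature had 0.227 and 0.0388 in cycling macrophages and 0.198 and 0.0508 in resting macrophages. It was also counted in the library labelled Mir34a_F/F, where no Cre was expected. The pri-miR-34a feature had 11 and 85 UMIs in cycling macrophages, a level of 0.0403 (0.0201 to 0.0721) and 0.165 (0.132 to 0.204) UMIs per 10000, and 66 and 185 UMIs in resting macrophages, or 0.0661 and 0.129. The library labelled Mir34a_Mye_KO had the higher level, and which part of the gene it covers, and whether the deletion removes that part, is not given in the sources used here. Directions between the libraries are given below by these labels. In cycling epithelial cells, which keep *Mir34a* by design in both groups, pri-miR-34a had 34 and 22 UMIs, or 0.0191 and 0.0247.

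Cells that divide pass through DNA replication (S phase), a second gap phase and mitosis (G2/M). E2F transcription factors are known to drive genes of DNA replication, whereas the MuvB complex, with B-Myb (*Mybl2*) and *Foxm1*, drives genes of mitosis through a promoter element called CHR, often beside CCAAT boxes. In colon crypts, stem and progenitor cells divide, and cells that differentiate into absorptive and goblet cells leave the cell cycle. *Mki67* encodes the proliferation antigen Ki-67 and *Top2a* encodes topoisomerase II alpha, which untangles DNA. *Cenpf* encodes a kinetochore protein and *Aspm* a protein of the spindle poles.

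The promoters of these 4 markers are shown because they carry elements that the cell cycle lists below were searched for. With them stand 2 S-phase genes, *E2f8*, an E2F repressor, and *Uhrf1*, which helps to copy DNA methylation. These 2 had the largest ratios of cycling over resting cells among S-phase genes with an E2F match in the printed stretch. Their E2F matches were thus fixed by the choice and do not describe S-phase promoters in general. Each sequence holds the 150 bases upstream of the annotated start site in the direction of transcription, from the RefSeq promoter table of GRCm38.p6. Capitals mark matches on either strand to CHR, searched as TTTGAA and as TTTAAA, to the CCAAT box, searched by these letters, and to E2F sites, searched as TTCCCGC and as the variants TTGGCGC and also TTCGCGC.
Mki67, chr7:135716380-135716529, minus strand: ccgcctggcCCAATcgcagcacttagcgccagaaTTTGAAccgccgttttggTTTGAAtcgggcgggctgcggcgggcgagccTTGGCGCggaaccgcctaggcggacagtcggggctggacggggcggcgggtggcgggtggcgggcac
Top2a, chr11:99024190-99024339, minus strand: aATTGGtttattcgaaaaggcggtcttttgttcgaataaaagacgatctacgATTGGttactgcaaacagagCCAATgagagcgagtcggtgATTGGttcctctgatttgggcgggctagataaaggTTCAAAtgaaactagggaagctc
Cenpf, chr1:189688087-189688236, minus strand: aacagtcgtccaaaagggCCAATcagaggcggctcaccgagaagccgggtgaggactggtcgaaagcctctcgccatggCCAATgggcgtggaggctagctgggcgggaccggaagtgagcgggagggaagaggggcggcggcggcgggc
Aspm, chr1:139454623-139454772, plus strand: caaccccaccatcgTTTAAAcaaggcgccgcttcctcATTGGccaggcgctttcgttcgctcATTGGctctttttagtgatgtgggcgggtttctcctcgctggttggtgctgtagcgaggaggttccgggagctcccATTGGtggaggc
E2f8, chr7:48881597-48881746, minus strand: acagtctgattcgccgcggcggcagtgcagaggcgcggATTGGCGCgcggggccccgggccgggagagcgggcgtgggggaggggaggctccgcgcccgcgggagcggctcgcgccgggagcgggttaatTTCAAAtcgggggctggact
Uhrf1, chr17:56303187-56303336, plus strand: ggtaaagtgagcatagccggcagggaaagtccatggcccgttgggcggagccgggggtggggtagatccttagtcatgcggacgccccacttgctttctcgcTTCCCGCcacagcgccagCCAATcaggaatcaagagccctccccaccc
The *Mki67* stretch holds 2 CHR matches, 1 CCAAT box and 1 E2F match, and that of *Top2a* 1 CHR match and 4 CCAAT boxes. The stretch of *Aspm* holds 1 CHR match and 3 CCAAT boxes, and that of *Cenpf* 2 CCAAT boxes without these CHR letters. The stretch of *E2f8* holds 1 CHR match, and a reverse CCAAT box and an E2F match that overlap. TTTAAA reads the same on both strands. The stretch of *Uhrf1* holds 1 E2F match and 1 CCAAT box. A match is a description of letters and does not show that a factor binds.

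At all UMIs, 14.5% of epithelial cells were cycling in the library labelled Mir34a_F/F (exact binomial 95% interval 13.7 to 15.2%) and 11.1% in the library labelled Mir34a_Mye_KO (10.3 to 11.9%). A share of cells with both mRNAs grows with depth, and droplets also hold free mRNA. Neutrophils, whose mature form is known not to divide, served as background and had both mRNAs in 4.66% and 4.88% of cells at a median depth of 4131 and 7195 UMIs. With every cell thinned to 3000 UMIs, which left out 1803 and 1980 epithelial cells and 300 and 134 neutrophils of lower depth, the epithelial shares were 7.16% (6.59 to 7.77%) and 6.75% (6.00 to 7.56%). The intervals of the libraries then overlapped. With at least 2 UMIs of each mRNA the shares were 7.45% (6.93 to 8.01%) and 5.53% (4.97 to 6.14%), and among cells with 5000 to 20000 UMIs 18.4% and 15.9%, and in the first of these settings the intervals lay apart. Under 10% mitochondrial content they were 14.5% (13.6 to 15.5%) and 9.13% (8.20 to 10.1%), and these intervals lay apart too. This limit kept 786 of 1342 and 324 of 671 cycling cells, and 3179 of 5473 and 2288 of 3625 resting cells. The median mitochondrial content was 8.16% and 10.8% in cycling and 7.84% and 6.41% in resting cells. The limit thus acted unequally on the classes in the library labelled Mir34a_Mye_KO, and this setting is no independent measure of the share. The share was higher in the library labelled Mir34a_F/F in each of these settings. How large the difference was, and whether the intervals lay apart, depended on the setting. The median depth of epithelial cells was 6431 and 6571 UMIs. The thinned shares in neutrophils were 2.05% and 1.69%, below both epithelial values.

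Among other cell types at all UMIs, macrophages had both mRNAs in 8.17% and 10.3% of cells, T cells in 6.16% and 9.70% and B cells in 6.55% and 15.2%. In these 3 immune cell types the share was higher in the library labelled Mir34a_Mye_KO, in contrast to epithelial cells, but depth differed between cell types and libraries and these shares were not thinned.

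**Figure D1:**
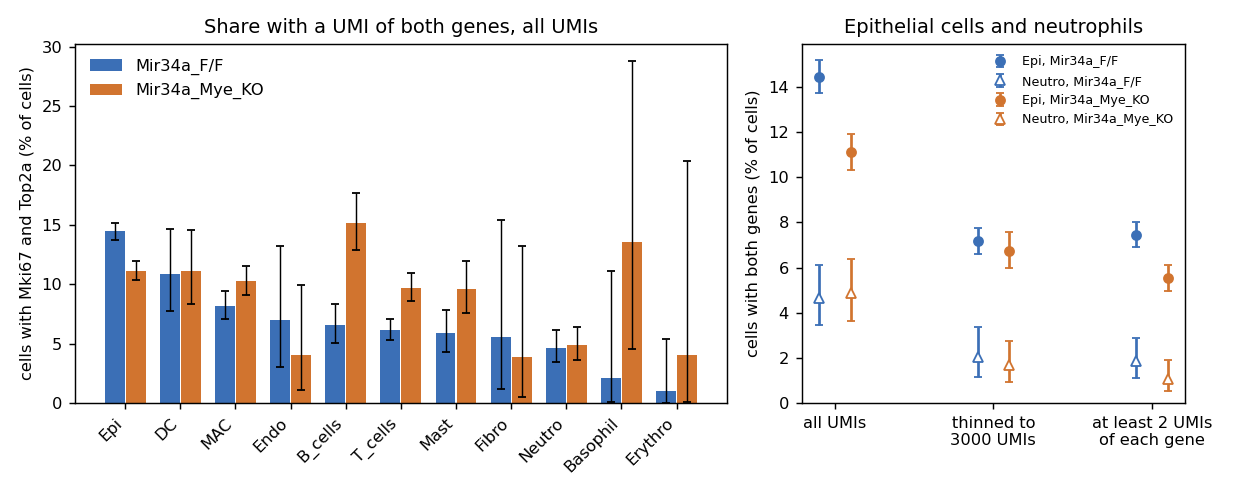
Share of cells with at least 1 UMI of both *Mki67* and *Top2a*. Bars on the left show each annotated cell type at all UMIs by library, and points on the right show epithelial cells (circles) and neutrophils (triangles) at all UMIs, thinned to 3000 UMIs and with at least 2 UMIs of each mRNA. Error bars are exact binomial 95% intervals for counting error. Thinned epithelial shares were 7.16% and 6.75%, against 14.5% and 11.1% at all UMIs.

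Members differed widely in how much of the chosen mRNAs they held. The median cell had 2 and 3 UMIs of *Mki67* and 3 and 2 UMIs of *Top2a*, and the highest cell had 43 and 63 UMIs of *Mki67* and 59 and 49 of *Top2a*. In 224 of 1342 and 134 of 671 members each mRNA rested on 1 UMI, whereas 692 and 334 members had at least 2 UMIs of each.

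This grading carried over to 2 lists of phase genes that share no gene with the rule, 43 S-phase and 52 G2/M genes. The level of a gene or list is the number of its UMIs per 10000 UMIs of a group of cells. The summed G2/M level was 56.0 and 61.3 in members with at least 2 UMIs of each mRNA, and 12.9 and 11.8 in resting cells. Members with 1 UMI of each mRNA had 19.1 and 13.1, close to epithelial cells with *Mki67* alone (18.0 and 13.9) or *Top2a* alone (16.5 and 13.7). Neutrophils had 17.0 and 13.8. For the members with 1 UMI of each mRNA the label of cycling cells rests on little, and in the library labelled Mir34a_Mye_KO their G2/M level was not above that of neutrophils. The summed S-phase level was 18.4 and 20.4 at 2 or more UMIs of each mRNA, 8.85 and 6.72 at 1 UMI of each, and 6.17 and 5.92 in resting cells. Neutrophils had an S-phase level of 5.23 and 4.56, below the members with 1 UMI of each mRNA and below resting cells. Their G2/M level lay above that of resting cells, so the place of neutrophils depended on the list.

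Genes of absorptive differentiation ran the other way, from a summed level of 88.8 and 87.9 in resting cells through 57.3 and 65.7 at 1 UMI of each mRNA to 38.1 and 21.3 at 2 or more UMIs of each. *Lypd8*, which keeps bacteria off the epithelium, supplied 22.1 and 15.3 of the summed 42.0 and 34.1 in all cycling cells. The list also holds *Saa1*, an acute-phase protein, with 4.01 and 3.76 in all cycling cells and 15.7 and 17.4 in resting cells. Interferon-stimulated genes went from a summed level of 6.71 and 8.88 in resting cells to 2.96 and 2.48 at 2 or more UMIs of each. Wnt target and stem genes stayed closer together, with 22.7 and 22.9 in resting cells and 19.2 and 19.7 in the members with most of both mRNAs.

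**Figure D2:**
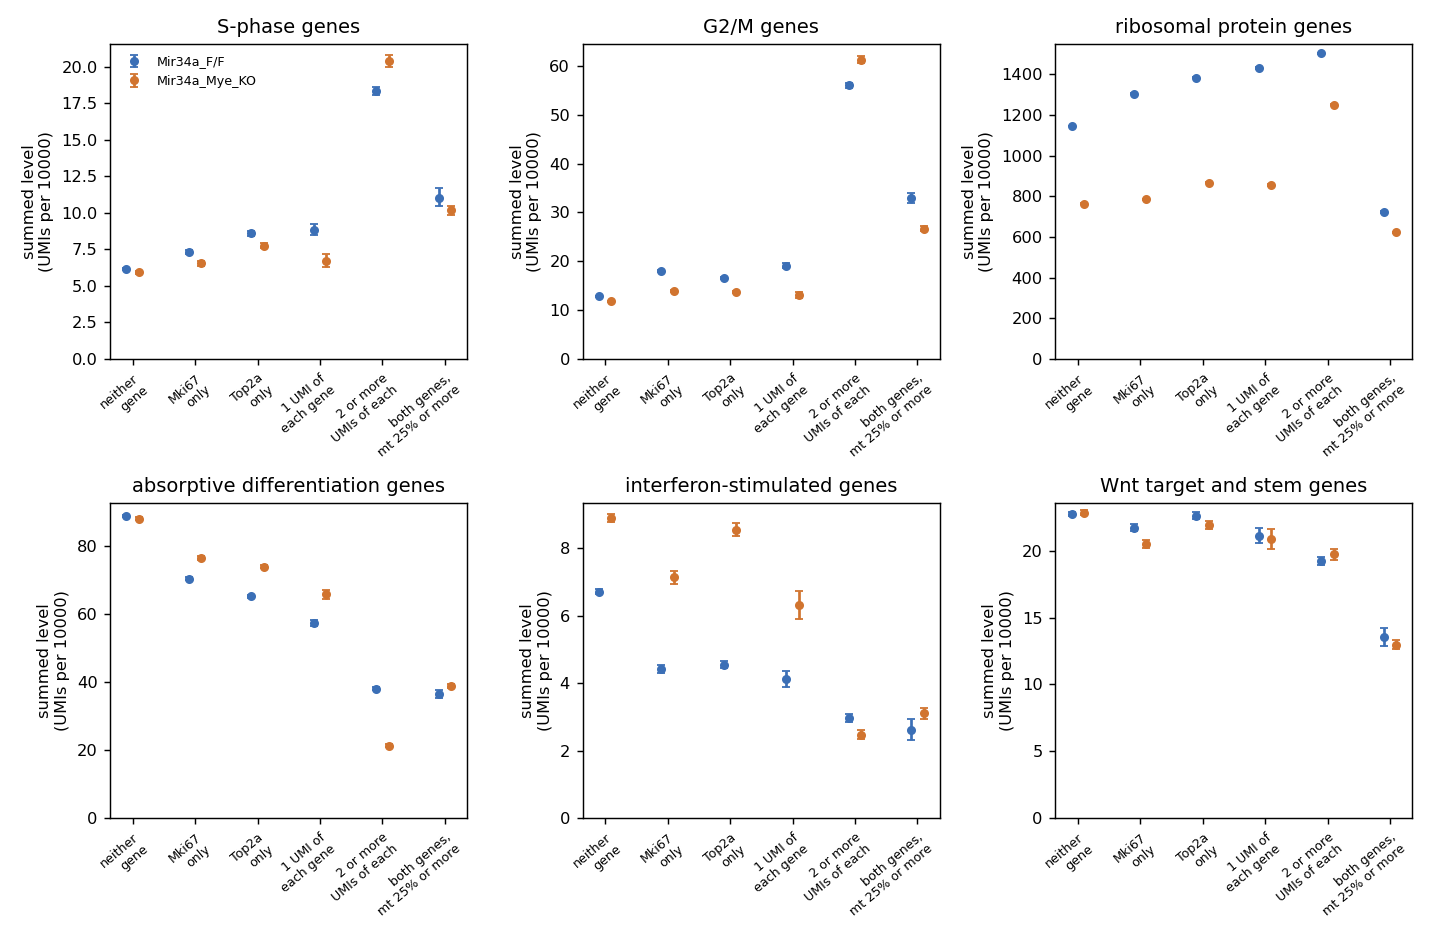
Summed level of 6 gene lists, in UMIs per 10000, in 6 classes of epithelial cells, for each library. The classes under the mitochondrial limit are ordered by their UMIs of *Mki67* and *Top2a*. The last class holds cells with both mRNAs at or above this limit, which are not members and are not placed by their UMIs. Points are summed levels with exact Poisson 95% intervals, which are often smaller than the point. The G2/M level was 56.0 and 61.3 at 2 or more UMIs of each mRNA and 19.1 and 13.1 at 1 UMI of each.

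The 2 markers that the rule did not use were both higher in cycling cells. *Cenpf* had a level of 1.35 in cycling and 0.0857 in resting cells of the library labelled Mir34a_F/F, and 1.703 and 0.0775 in the other library. The log2 ratios were 3.98 (3.82 to 4.14) and 4.46 (4.25 to 4.67). *Aspm* had a level of 0.278 against 0.0153, and 0.357 against 0.0228, with log2 ratios of 4.18 and 3.97. At 3000 UMIs per cell, *Cenpf* was seen in 30.1% and 32.7% of cycling cells, 2.65% and 2.17% of resting cells and 5.06% and 2.58% of neutrophils. At all UMIs it was seen in 54.8% and 50.5% of cycling cells, so that not detecting a phase mRNA says little about a single cell.

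By their markers the cycling cells were epithelial. All 8 epithelial markers were detected, with a summed level of 110 and 86.6 in cycling cells and 123 and 98.8 in resting cells, against 49.5 and 26.8 in neutrophils. *Epcam*, an epithelial adhesion protein, was at 16.1 and 14.9 in cycling cells and at 17.6 and 16.0 in resting cells. *Ptprc*, which encodes the leukocyte antigen CD45, was at 0.294 and 0.482 in cycling cells, 0.342 and 0.567 in resting cells and 8.14 and 11.7 in neutrophils. Markers of other cell types were present in both classes at levels that differed by type, and none of the listed ones was without a UMI. The 6 neutrophil markers summed to 8.24 and 6.49 in cycling cells and to 8.90 and 9.47 in resting cells, against 1578 and 1166 in neutrophils. The 7 macrophage markers summed to 1.53 and 1.95 in cycling cells and to 1.58 and 2.33 in resting cells. The 7 B and plasma cell markers, led by *Igkc*, summed to 13.3 and 25.4 in cycling cells and to 10.8 and 33.2 in resting cells. Their part in the differences between the libraries was not tested.

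Of 11231 genes with a mean level of at least 0.05 over the 4 groups, 403 were at least 2-fold higher in cycling cells of both libraries, 3.59% of the genes, and 200 were at least 2-fold lower, 1.78% of the genes. The mean includes the cycling groups, so a gene can pass this filter through its cycling level. *Aspm*, for example, was at 0.278 and 0.357 in cycling cells and at 0.0153 and 0.0228 in resting cells. Counts of members called higher among those that passed, here and in the lists below, are in part set by this filter. No gene passed 2-fold in opposite directions. The median log2 ratio over all genes was -0.01 and -0.03. Among genes with a level of at least 0.5 in a group, *Hist1h1b*, a linker histone made in S phase, was at 0.936 against 0.0482 and at 1.81 against 0.0848 in cycling and resting cells, with log2 ratios of 4.28 and 4.42. *Cenpe*, a kinesin of the kinetochore, was at 0.861 against 0.0581 and at 1.21 against 0.0701 (log2 ratios 3.89 and 4.11). *Ube2c*, the ubiquitin-conjugating enzyme of the anaphase-promoting complex, was at 1.95 against 0.189 and at 2.12 against 0.216 (3.37 and 3.30). The others of the 12 genes with the largest ratios at this level were *Cenpf*, *Tpx2*, *Hist1h3c*, *Kif20b*, *Racgap1*, *Kif11*, *Cdca8*, *Prc1* and *Nusap1*, all with log2 ratios between 3.24 and 4.46.

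In the list of 43 S-phase genes, 40 passed the level filter and 29 were at least 2-fold higher in both libraries. The median log2 ratio of those that passed was 1.80 and 1.69. *Clspn*, a mediator of the replication checkpoint, was at 0.329 against 0.0411 and at 0.497 against 0.0334 (log2 ratios 3.00 and 3.90). At the low end *Mrpl36*, a mitochondrial ribosomal protein that is part of the common S-phase list, had 0.43 and 0.16.

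The 25 genes of replication origins and forks all passed the level filter and 22 were called higher. The 6 subunits of the MCM helicase, *Mcm2* to *Mcm7*, had log2 ratios between 1.31 and 2.27. Among the DNA polymerase subunits, *Pola1* had 2.14 and 2.30. *Pole* stood at 0.165 against 0.0515 and at 0.231 against 0.029, with log2 ratios of 1.68 and 2.99. *Pcna*, the sliding clamp, was at 1.22 against 0.717 and at 1.11 against 0.651, and its ratio of 0.77 in both libraries stayed under 2-fold. At 3000 UMIs *Pcna* was seen in 28.9% and 28.0% of cycling cells and in 17.5% and 16.2% of resting cells. Neutrophils had it in 15.6% and 14.6% of cells, with intervals that overlapped those of resting cells. Of 10 genes of nucleotide supply 7 were called higher. Thymidine kinase (*Tk1*) had 2.82 and 2.92, and the ribonucleotide reductase subunit *Rrm2* had 2.92 and 2.59. *Paics* and *Gart*, of purine synthesis, remained under 2-fold with 0.66 and 0.70, and 0.79 and 0.91.

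Cyclins separated by phase. The mitotic cyclin *Ccnb1* was at 0.353 against 0.0415 and at 0.331 against 0.0356 (log2 ratios 3.09 and 3.22). *Ccna2* had 3.23 and 3.04, *Ccnf* had 2.98 and 2.95 and *Ccnb2* had 2.81 and 2.78. The G1/S cyclins *Ccne1* and *Ccne2* had 2.06 and 2.36, and 1.76 and 2.07. The D-type cyclins, which act in G1, were not called. *Ccnd1* was at 1.98 against 1.06 and at 1.60 against 0.849 (0.90 and 0.92), *Ccnd2* hardly differed (0.03 and 0.08) and *Ccnd3* was lower (-0.35 and -0.50). At 3000 UMIs *Ccnd1* was seen in 36.5% and 34.2% of cycling cells, 19.7% and 18.0% of resting cells and 10.1% and 7.64% of neutrophils.

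Of 5 cyclin-dependent kinases 1 was called higher, the mitotic kinase *Cdk1*, at 0.620 against 0.0734 and 0.552 against 0.0742. *Cdk2* had 0.82 and 1.23, *Cdk4* 0.37 and 0.55, *Cdk7* 0.14 and 0.07, and *Cdk6* -0.38 and -0.18. Of 7 inhibitors of these kinases 1 was called higher, *Cdkn2c* (p18), with 2.17 and 2.55. *Cdkn2d* (p19) had 0.95 and 1.12 and *Cdkn1b* (p27) had 0.22 and 0.29. The other inhibitors were lower, with *Cdkn1c* (p57) at -1.11 and -0.73, *Cdkn2b* (p15) at -0.75 and -0.66, *Cdkn2a* at -0.51 and -0.10, and *Cdkn1a* (p21) at -0.39 and -0.47.

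Among 15 genes of the E2F, pocket protein and MuvB group 6 were called higher. The repressors *E2f7* and *E2f8* had 3.76 and 3.38, and 2.89 and 2.94. *Foxm1* had 3.22 and 3.23, *Mybl2* 2.42 and 2.51, the activator *E2f1* 1.62 and 1.53, and the pocket protein *Rbl1* 1.15 and 1.24. *E2f3* (0.79 and 0.91), *E2f2* (0.87 and 0.75), *Lin9* (0.92 and 1.28), *Lin54* (0.71 and 0.41), *E2f4* (0.30 and 0.50), *E2f5* (0.25 and 0.52) and *Lin37* (0.20 and 0.18) were not called. The pocket proteins *Rb1* (-0.06 and 0.08) and *Rbl2* (0.02 and -0.23) lay near 0.

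The G2/M list had 52 genes, of which 51 passed the level filter and 47 were called higher, with a median log2 ratio of 2.97 and 2.90. *Ttk*, the kinase that starts the spindle checkpoint, was at 0.161 against 0.00991 and at 0.314 against 0.0154 (4.03 and 4.35). The lowest were *Tubb4b*, a tubulin with many UMIs in resting cells too (0.38 and 0.22), and *Jpt1* (0.38 and 0.26). All 20 genes of spindle and cytokinesis and all 16 genes of centromere and kinetochore passed the filter and were called, with medians of 3.27 and 3.31, and of 2.98 and 3.02. Of 17 genes of the spindle checkpoint and the anaphase-promoting complex 13 were called. Securin (*Pttg1*) was not among them, at 0.215 against 0.220 and 0.167 against 0.176 (-0.03 and -0.07).

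Of 10 condensin and cohesin genes 5 were called. The 5 were subunits of condensin (*Ncapg*, *Ncaph*, *Ncapd2*, *Smc2* and *Smc4*), which compacts mitotic chromosomes, with log2 ratios between 2.06 and 3.42. The cohesin genes *Rad21*, *Smc3*, *Smc1a*, *Stag1* and *Stag2*, which hold sister chromatids together and act in resting cells as well, had -0.03 to 1.14. Of 20 histone and chromatin genes 14 were called, among them *Hmgb2*, at 8.85 against 1.696 and 8.06 against 1.31 (2.38 and 2.62). *Hist1h4c* differed between the libraries, with -0.06 and 0.53. Of 17 DNA repair genes 15 passed the filter and 10 were called, such as *Brca1* (2.78 and 2.51).

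**Figure D3:**
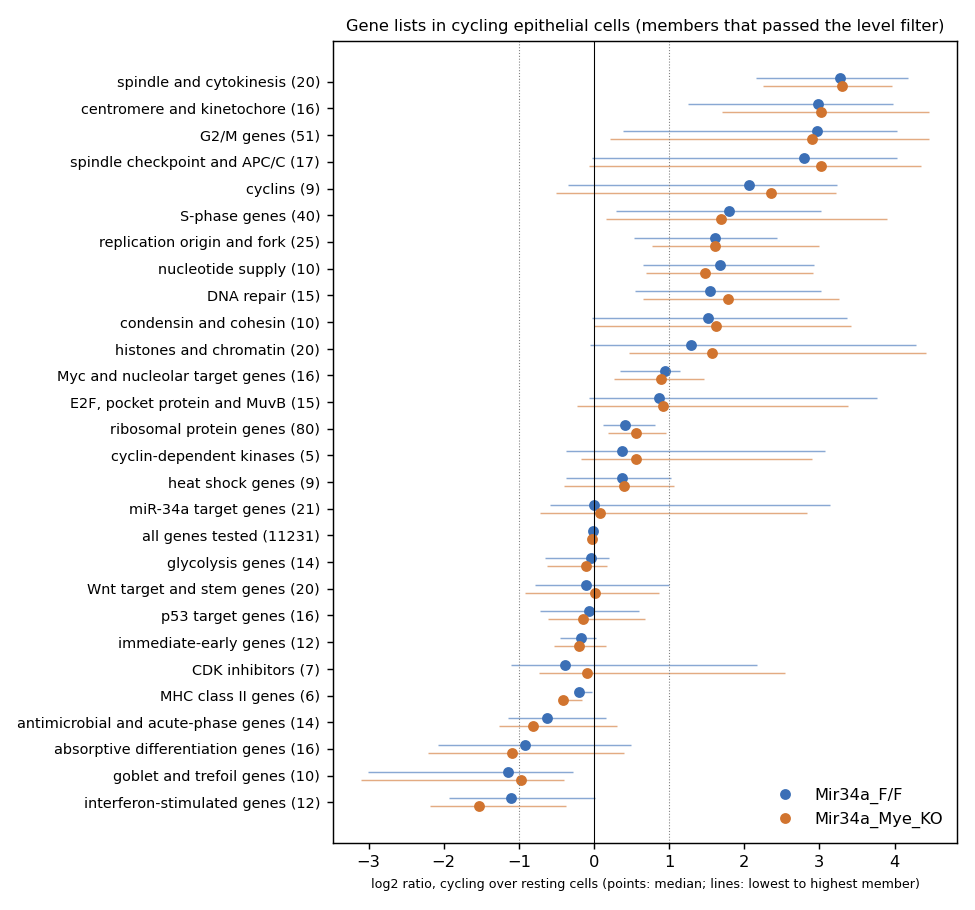
Log2 ratio of cycling over resting epithelial cells for 27 gene lists and all genes tested. Points are medians over the list members that passed the level filter (their number is given in brackets) in each library, lines run from the lowest to the highest member (not drawn for all genes), and dotted lines mark 2-fold. Spindle and cytokinesis genes had the highest medians (3.27 and 3.31), and interferon-stimulated genes were at -1.10 and -1.54.

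Growth-related genes differed less. Of 16 Myc and nucleolar target genes 5 were called higher, with a median of 0.94 and 0.88. *Ncl*, which encodes nucleolin, was at 7.40 against 3.63 and at 9.02 against 3.26 (1.03 and 1.47). All 80 ribosomal protein genes that passed the filter, of 83 listed, lay above 0 in both libraries with none at 2-fold and a median of 0.42 and 0.56. Of 9 heat shock genes the mitochondrial chaperonin *Hspd1* was called (1.02 and 1.07). None of the 14 glycolysis genes was called, and their median was -0.04 and -0.11.

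Neither did 16 p53 target genes pass 2-fold in any direction (median -0.07 and -0.14), with *Cdkn1a* as given above and *Btg2*, an antiproliferative gene, at -0.51 and -0.60. The 12 immediate-early genes, such as *Fos* and *Jun*, contained no call. Among 24 listed targets of miR-34a, the microRNA that *Mir34a* encodes, 21 passed the filter and 2 were called higher, *Ccne2* (1.76 and 2.07) and *Birc5* (3.14 and 2.83), both also in cell cycle lists. The median of the 21 was 0.00 and 0.08. *Cdk6* (-0.38 and -0.18), *Met* (-0.19 and -0.09), *Bcl2* (-0.36 and -0.31), *Lef1* (-0.50 and -0.56) and *Il6ra* (-0.59 and -0.72) were lower in cycling cells without reaching 2-fold. *Notch1* (0.28 and 0.48), *Notch2* (0.34 and 0.23), *Jag1* (0.42 and 0.44) and *Myc* (0.16 and 0.44) were higher without reaching it. *Cd44*, *Foxp1*, *Sirt1*, *Mta2* and *Fosl1* had -0.11 to 0.14. *Nampt* had -0.03 and -0.34 and *Csf1r*, the macrophage growth factor receptor, -0.28 and -0.24.

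UMIs of both phase lists were counted in each cell thinned to 3000 UMIs. In 1085 of 1295 and 485 of 626 members G2/M UMIs outnumbered S-phase UMIs, which is 83.8% (81.7 to 85.8%) and 77.5% (74.0 to 80.7%). S-phase UMIs were in the lead in 145 and 92 members, and 65 and 49 were tied. The median member had 4 and 4 S-phase UMIs and 12 and 10 G2/M UMIs. Resting cells had a median of 2 and 1 S-phase UMIs and of 4 and 3 G2/M UMIs, and 71.6% (70.2 to 73.0%) and 66.9% (64.8 to 68.9%) of them were G2/M-led as well. A lead of the G2/M list was thus also common in cells without either mRNA, and the lead alone does not place a cell in a phase. In 20.8% and 30.0% of thinned members the lists differed by at most 2 UMIs, which makes the classes ranges rather than types. This share was 12.3% and 14.5% in thinned members with at least 2 UMIs of each mRNA. With all UMIs of a cell it was 6.71% and 11.5%. The rule itself asks for *Top2a*, a gene of late S phase and G2/M, and cells in G1 or early S phase may not meet it.

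**Figure D4:**
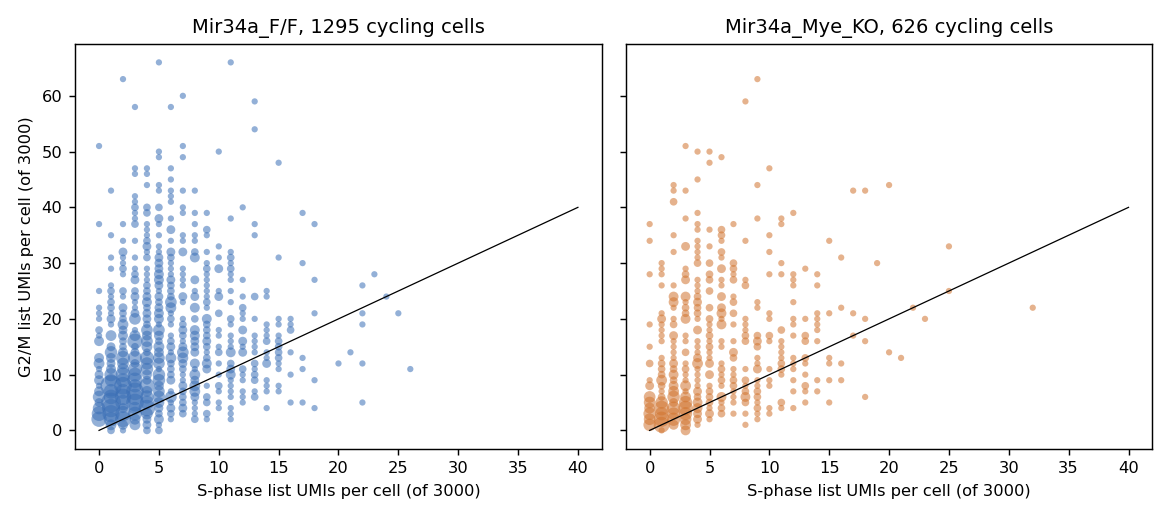
UMIs of the S-phase list (horizontal) and of the G2/M list (vertical) in each cycling epithelial cell thinned to 3000 UMIs, with larger points for more cells at the same position. The line marks equal UMIs, and most members lie above it (1085 of 1295 and 485 of 626).

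Of 11140 genes outside the lists, 43 were at least 2-fold higher in G2/M-led members of both libraries and 15 in S-led members. *Racgap1*, which positions the cytokinetic ring, had log2 ratios of G2/M-led over S-led members of 1.77 and 1.85. *Ccna2* had 1.49 and 1.38, and *Prc1*, a bundler of midzone microtubules, 1.35 and 2.04. On the S-led side stood *Slfn9* (-1.89 and -1.26), *Atad5*, which unloads the sliding clamp (-1.46 and -1.06), *Wdhd1*, a replisome anchor (-1.18 and -1.25), and *Mcm3* (-1.28 and -1.04). *E2f1* was higher in S-led members (-1.06 and -1.04) and *Foxm1* in G2/M-led members (1.30 and 1.21). The D-type cyclin *Ccnd1* was 2.82 and 2.23 in S-led and 1.85 and 1.47 in G2/M-led members. The histone genes *Hist1h2ap*, with 0.98 and 0.99, and *Hist1h4f*, with 0.92 and 1.23, were higher in G2/M-led members. *Hbb-bs*, a globin of red blood cells, also led the G2/M side, with 1 cell holding 88.3% of its UMIs in cycling cells of the library labelled Mir34a_Mye_KO.

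Promoters, from 250 bases before to 50 after the start site, were found in the RefSeq table for 31 of 43 S-phase and 45 of 52 G2/M genes. A CHR match was present in 36 of 45 G2/M promoters (80.0%) and in 8 of 31 S-phase promoters (25.8%), against 22.8% of 8798 promoters of genes tested and 30.6% of all promoters. E2F matches were divided the other way, with 19 of 31 S-phase promoters (61.3%) and 8 of 45 G2/M promoters (17.8%), against 17.1% of genes tested and 9.20% of all promoters. CCAAT boxes were frequent in both, with 67.7% and 75.6% against 42.9% and 41.1%. A CHR match together with a CCAAT box, as in the *Mki67*, *Top2a* and *Aspm* stretches above, was found in 29 of 45 G2/M promoters (64.4%) and in 10.7% of promoters of genes tested. In the first 25 bases after the start site 31.1% of G2/M promoters had a CHR match, against 1.32% of genes tested. Of the 403 genes called higher in cycling cells 314 had a promoter, with CHR matches in 43.3% and E2F matches in 39.5%. Of the 200 genes called lower 144 had one, with CHR matches in 25.7% and E2F matches in 4.86%.

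**Figure D5:**
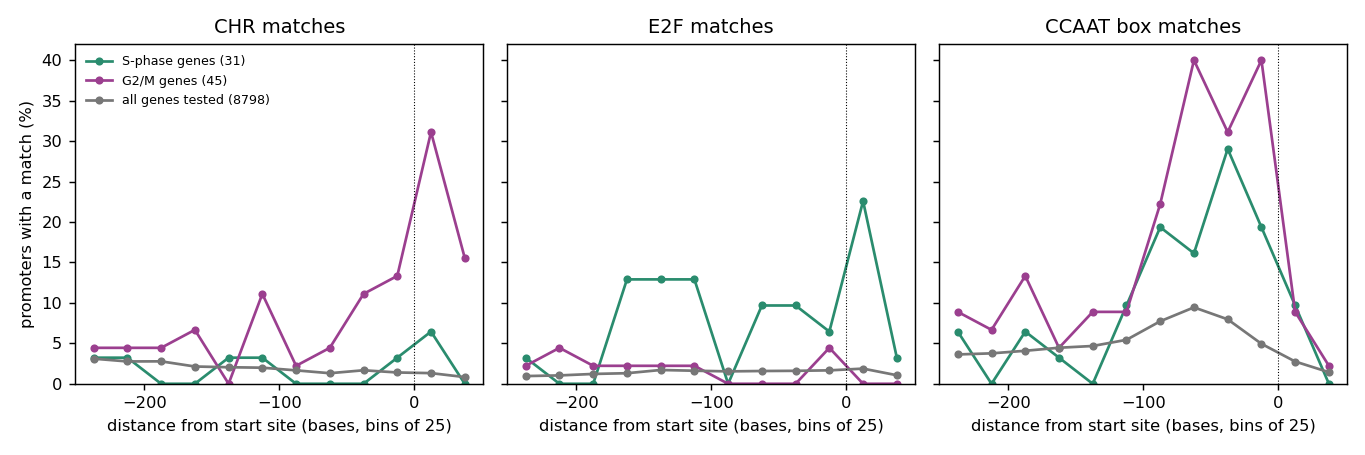
Share of promoters with a CHR, E2F or CCAAT box match by distance from the start site in bins of 25 bases, for S-phase genes, G2/M genes and all genes tested. The CHR line of G2/M genes peaks at 31.1% just after the start site, and the line of all genes tested stays at 1.32% there.

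At the other end *Saa1* was at 4.01 against 15.7 and at 3.76 against 17.4 in cycling and resting cells (-1.97 and -2.21). *Atp12a*, a proton pump, had -1.94 and -1.86, and *Ifit1bl1*, an interferon-stimulated gene, -1.74 and -1.97. The rest of this end was made up of alpha-defensins, antimicrobial peptides of Paneth cells (*Defa17*, *Defa21*, *Defa22*, *Defa24*, *Defa30*, *Defa36*), *Gm15293*, and the goblet cell products *Zg16* and *Clca1*. Many of these values rested on single cells. *Defa21* was at 0.183 against 3.03 and at 0.0404 against 2.66, but 1 resting cell held 81.4% and 60.0% of its resting UMIs, and without the highest cell of each group the log2 ratios went from -4.05 and -6.04 to -1.69 and -4.80. Of the 200 genes called lower 50 had a cell with at least 20% of the UMIs of a group, and of the 403 called higher 5 had one.

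Absorptive differentiation genes were listed with 20 members, of which 16 passed the filter and 7 were at least 2-fold lower in both libraries, 1 of them the acute-phase gene *Saa1*. *Krt20*, a keratin of differentiated colonocytes, was at 0.778 against 1.95 and at 0.732 against 2.16 (-1.32 and -1.56). *Lypd8* was at 22.1 against 44.7 and 15.3 against 39.7 (-1.01 and -1.38). *Cdhr5*, a brush border cadherin, had -1.16 and -1.42 and *Clca4b* -1.69 and -1.85. *Car2*, carbonic anhydrase 2, went the other way with 0.49 and 0.40. Among 10 goblet and trefoil genes that passed, of 11 listed, 4 were called lower, among them *Fcgbp* (-1.87 and -1.52) and trefoil factor 3 (*Tff3*, -1.70 and -1.41). *Muc2*, the main mucin, was at 1.58 against 3.90 and at 2.46 against 4.62 (-1.30 and -0.91), and was not called. In cycling cells 1 cell held 26.9% and 31.7% of its UMIs, and without the highest cell of each group the ratios were -1.69 and -1.40, past 2-fold in both libraries. At 3000 UMIs *Muc2* was seen in 18.6% and 17.3% of cycling cells in 19.7% and 25.1% of resting cells and in 18.1% and 25.6% of neutrophils, so that neither class of epithelial cells lay above background in both libraries.

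Of the 12 interferon-stimulated genes 7 were called lower, with a median of -1.10 and -1.54. *Isg15*, a ubiquitin-like modifier, was at 0.404 against 0.899 and at 0.456 against 1.24 (-1.16 and -1.44). The interferon regulatory factor *Irf7* had -1.10 and -1.32. Of 14 antimicrobial and acute-phase genes that passed, of 15 listed without *Saa1*, 2 were called lower, *Duox2* (-1.05 and -1.18) and its maturation factor *Duoxa2* (-1.15 and -1.26), which make hydrogen peroxide at the epithelial surface. None of the 6 MHC class II genes that passed was called, which at 3.59% higher and 1.78% lower of all genes does not set them apart.

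None of the 20 Wnt target and stem genes that passed, of 21 listed, was called. At 3.59% higher and 1.78% lower of all genes, a list of this size without a call does not stand apart. *Lgr5*, the stem cell receptor, was at 0.475 against 0.746 and at 0.523 against 0.909 (-0.65 and -0.80). *Ascl2*, a stem cell transcription factor, was higher (1.001 and 0.865), and *Axin2* (-0.05 and 0.21) and *Sox9* (0.07 and 0.12) lay near 0. The negative regulators *Notum* and *Nkd1* were lower, with -0.78 and -0.75, and -0.66 and -0.81. At 3000 UMIs *Lgr5* was seen in 9.65% and 13.6% of cycling cells, 12.2% and 16.0% of resting cells and 3.69% and 3.48% of neutrophils. At all UMIs the order was reversed, with 23.9% and 24.4% of cycling against 20.5% and 20.3% of resting cells, in the direction of depth.

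Seen from the other side, the thinned cycling share was 5.61% (4.21 to 7.31%) in epithelial cells with *Lgr5* and 7.38% (6.76 to 8.04%) in those without it in the library labelled Mir34a_F/F. In the library labelled Mir34a_Mye_KO it was 6.03% (4.26 to 8.25%) and 6.87% (6.05 to 7.77%). These intervals overlapped in both libraries. Cells with *Krt20* were cycling in 3.62% (2.82 to 4.56%) and 2.25% (1.41 to 3.39%), and cells without it in 8.35% (7.64 to 9.11%) and 8.18% (7.23 to 9.20%). In this case the intervals lay apart in both libraries, while the background of *Krt20* in neutrophils was 9.03% and 8.20% of cells against 29.8% and 27.9% of resting cells.

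Between the libraries, 70 of the 11231 genes (0.623%) were at least 2-fold higher in cycling cells of the library labelled Mir34a_Mye_KO and 147 (1.31%) at least 2-fold lower. Of these, 22 and 43 passed 2-fold in the same direction in resting cells, and 3 and 15 had the opposite sign there. The median over all genes was -0.06 in both classes. For other totals, immunoglobulin and mitochondrial genes, the ribosomal RNA-like genes *Gm42418* and *AY036118* and the kinase gene *Cdk8* were left out. These held 11.7% and 20.5% of UMIs of cycling cells. Leaving them out shifted every ratio by 0.15 and gave 119 genes higher and 105 lower. No other ribosomal RNA-like gene was left out, and *Gm26917*, named below, stayed in these totals. Under 10% mitochondrial content 242 were higher and 197 lower, and with at least 2 UMIs of each mRNA 88 were higher and 223 lower. Whether more genes were higher or lower thus depended on the setting.

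Among genes that were detected in 25% or more of the cells of a library, *Il31ra*, a cytokine receptor subunit, was at 0.659 and 3.82 in cycling cells (log2 ratio 2.54) and at 0.486 and 1.59 in resting cells (1.71). *Iglc2*, an immunoglobulin light chain of plasma cells, was at 0.135 and 0.834 (2.63) and its ratio in resting cells was 3.08. *Lars2*, mitochondrial leucyl-tRNA synthetase, was at 6.25 and 24.3 (1.96, and 1.68 in resting cells). *Gm15564*, *Gm26917*, *Camk1d*, *Gm48099* and *Cmss1* had 1.64 to 2.19 in cycling cells and 1.07 to 1.98 in resting cells. On the lower side *Ptn*, the growth factor pleiotrophin, was at 2.33 and 0.739 (-1.66, and -1.05 in resting cells). *Hspb1*, a small heat shock protein, had -1.58, *Lcn2*, an iron-binding antimicrobial protein, -1.45, and *Ifitm1* -1.35. *Gm11290*, *Defa24*, *Gm42047* and *Gm11808* had -1.55 to -1.30. All 16 of these genes had the same direction in resting cells. Some differed in the same direction outside the epithelium. Resting T cells, with 7607590 and 9897712 UMIs in all, had 595 and 2131 UMIs of *Gm15564* and 1173 and 562 of *Gm11808*. The other genes are not given for T cells here.

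With all UMIs in the totals, no gene of the phase lists passed 2-fold between the libraries, beside 0.623% higher and 1.31% lower of all genes. Of the S-phase genes 27 of 40 lay above 0, or 36 with the other totals. Of the G2/M genes it was 31 of 51, or 41, and of all genes 4724 of 11231, or 6810. Spindle and cytokinesis genes lay above 0 in 17 of 20, or 20, and cyclins in 3 of 9, or 5. The S-phase list had a median of 0.08 and the G2/M list of 0.07 in cycling cells, which became 0.23 and 0.22 with the other totals, against a median over all genes of -0.06 and 0.09. With all UMIs in the totals *Hist1h1e*, a linker histone, was the exception among cell cycle lists, at 0.960 and 2.50 (1.38). The linker histone *Hist1h1b* had 0.95, and the shift of 0.15 by the other totals took it past 2-fold. The 13 mitochondrial genes were all higher in the library labelled Mir34a_Mye_KO under both totals (median 0.70), and 78 of 80 ribosomal protein genes were lower (median -0.39), or 74 of 80 with the other totals. All 6 MHC class II genes were higher under both totals (median 0.59), in cycling as in resting cells (6 of 6, median 0.82). Markers of some immune cells were higher beside them in cycling cells, with medians of 0.91 for the 4 B and plasma cell markers that passed the filter, 0.52 for 7 macrophage markers and 0.49 for 6 mast cell markers, and 0.71 for *Ptprc*. The 5 T cell markers and the 4 neutrophil markers that passed had medians of -0.57 and -0.35. The part of these cells in it was not tested. The 21 targets of miR-34a had a median of 0.03, or 0.18 with the other totals, and none passed 2-fold. The median mitochondrial share of cycling cells was 8.16% and 10.8%. The part of mitochondrial content, of free mRNA of other cells and of the pooled mice in these differences was not tested, and with 1 library per genotype they cannot be told apart from the genotype.

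In cycling T cells (187 and 250) and macrophages (178 and 258), chosen in the same way, the summed levels of the phase lists were also higher than in their resting counterparts. The summed G2/M level of T cells was 60.9 and 52.8 in cycling and 21.1 and 17.2 in resting cells. In macrophages it was 33.2 and 17.1 in cycling and 12.8 and 11.6 in resting cells, beside 43.5 and 43.8 and 12.9 and 11.8 in epithelial cells. The summed S-phase level was 22.6 and 26.7 against 10.49 and 9.84 in T cells and 16.5 and 9.52 against 6.34 and 6.15 in macrophages. These cells were fewer and rested more often on 1 UMI of each mRNA (31.4 to 32.1%), and the differences between cell types were not tested.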

How the data were processed

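Per the methods of the study, single cells were captured with the 10x 3′ v3.1 kit, and the submitters' processing notes name Cell Ranger 7.2.0 and mm10. The authors state that cells had under 25% mitochondrial content and that Scrublet was used against doublets. Cells at or above this content are nonetheless in the deposited table. Each deposited value is a natural log, taken by the authors in Seurat after scaling a cell to 10000 UMIs and adding 1. The log was undone and whole UMIs were recovered, with a largest deviation of 1.5e-10, for 32291 genes in 38883 cells. Library and cell type were taken from the deposited annotation, and 0 columns of sample values were left unused. No doublet caller was run again.

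The level of a gene was its summed UMIs per 10000 summed UMIs of a group of cells. Intervals at 95% were exact Poisson for levels, exact conditional binomial for log2 ratios and Clopper-Pearson for shares. A gene was called when it passed 2-fold in both libraries, among genes with a mean level of at least 0.05 other than *Mki67* and *Top2a*. Thinning drew 3000 UMIs per cell (seed 1). The scripts were tested on simulated data.

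The members and the gene lists were chosen with earlier results of these data known. Genes named are the markers of the rule, the 12 with the largest ratio at each end with a level of at least 0.5, the 3 at each end of a list, all cyclins, kinases, inhibitors, E2F and miR-34a target genes, the 8 at each end between libraries with a UMI in 25% of cells, and cell type markers. Other genes (such as *Lypd8*, *Isg15*, *Lgr5*, *Muc2* and *Slfn9*) were named after their values were seen. Alternatives were the mean over cells, 5000 to 20000 UMIs, under 10% mitochondrial content, at least 2 UMIs of each mRNA, other totals, a level of at least 0.5, thinning, and, added after seeing the data, levels without the highest cell. Python 3.11.15 with numpy 2.4.6, scipy 1.17.1, pandas 2.3.3 and matplotlib 3.10.9 was used. Some members of the lists are not reported here.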

Additional observations from a re-analysis of the deposited data

Results flagged for a closer look

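For 5 of the named genes, the ratio of cycling over resting cells had opposite signs in the libraries with both intervals off 0. The difference between the libraries was not tested. *Car1*, carbonic anhydrase 1, had log2 ratios of 0.20 in the library labelled Mir34a_F/F and -0.39 in the library labelled Mir34a_Mye_KO. The plasma cell mRNAs *Jchain* and *Igkc* had 0.39 and -0.41, and 0.29 and -0.38. The immediate-early genes *Jun* and *Fos* had -0.079 and 0.16, and 0.028 and -0.085. None of these ratios reached 2-fold.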

How the results depend on the processing

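No call for a named gene changed direction with the mean over cells, among cells with 5000 to 20000 UMIs or without the highest cell. Directions of single genes were not compared under the other alternatives, some of which changed whether more genes were higher or lower between libraries. With levels of at least 0.5 required, 49 genes were higher and 55 lower in cycling cells, 1 of 5 S-phase and 14 of 18 G2/M genes tested were higher, and 20 and 34 genes were higher and lower in the library labelled Mir34a_Mye_KO, since fewer genes were tested. With at least 2 UMIs of each mRNA, 367 genes were lower in cycling cells and 223 lower between libraries, the cycling share was 7.45% and 5.53%, and 88.3% and 86.4% of members were G2/M-led. Under 10% mitochondrial content, 242 genes were higher between libraries and the cycling share was 14.5% and 9.13%. The other totals gave 119 genes higher between libraries. Thinned shares were 7.16% and 6.75%, and shares among cells with 5000 to 20000 UMIs 18.4% and 15.9%. With all UMIs of a cell, 90.4% and 85.2% of members were G2/M-led, and the phase lists differed by at most 2 UMIs in 6.71% and 11.5%. The cause of these shifts was not tested. The other counts of called genes stayed within 1.5 times of those reported. Under the alternatives that kept the lower level limit, between 326 and 403 of the 403 genes called higher were called again. Of the 200 called lower, between 114 and 198 were. Of the values of single genes named, 343 moved beyond their counting interval with the mean over cells and 183 did not, and among cells with 5000 to 20000 UMIs 320 did and 206 did not, with no reversal of a call. No paired analysis was possible because each genotype has 1 library.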
